A study of Mus musculus with 6 samples.

Results

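The 10 mouse cathepsin genes Ctsw, Ctsb, Ctsc, Ctsd, Ctse, Ctsh, Ctsk, Ctsl, Ctss and Ctsz were examined, out of 22910 genes that the arrays reach. They were selected by name because of the large difference of Ctsw between the arrays described here, so their own differences between the groups are given as descriptions without a test. A probe was taken for a gene when the RefSeq accession printed for it maps to that gene, which gave 13 probes for the 10 genes. The cells were airway epithelial cells from the lung of C57BL/6 mice, grown as organoids and then plated flat in 6-well plates as 2D-MAOs, which stands for mouse airway organoids in a flat culture. The TGF-β1 group, with 3 biological replicates, received TGF-β1, a secreted growth factor, from day 3, and the control group, with 3 biological replicates, received none. The methods of the array experiment name no concentration. The treatment was given in medium without noggin, an inhibitor of BMP ligands, and without A83-01, a small-molecule inhibitor of TGF-β receptors, and the cells of both groups were collected on day 7. The study compared the groups to look for genes downstream of TGF-β1 in the airway cells. RNA of each culture was measured on 1 single-colour Agilent array, and all 6 arrays shared 1 slide and 1 scan time.

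Cathepsins are proteases that mostly work in the acid interior of endosomes and lysosomes. Most of them are papain-like cysteine proteases, while Ctsd and Ctse are aspartic proteases. They are made as inactive precursors, carried to the lysosome largely by mannose-6-phosphate receptors, activated there by cleavage, and held in check outside it by inhibitors such as cystatins and stefins. Ctsw is unusual in the family, because it is best known from cytotoxic T cells and natural killer cells. In lung, Ctsh is known for processing the precursors of surfactant proteins, and Ctss for its role in antigen presentation.

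Of all probes, 55.0 to 59.0% were well above background on an array, and no spot was saturated. Replicate 3 of both groups lay in slide row 2 and the other arrays in slide row 1. TGF-β1 replicate 3 stood apart from its group: over all genes tested its profile lay at a distance of 54.4 to 60.9 from the control arrays and of 61.1 and 62.3 from the other TGF-β1 arrays, whereas those were 32.3 apart. Calls that this array changes among the members and lists are therefore given with and without it, as are some of the values that it moves by over 1.5 times. Signals below are log2 values after quantile normalisation, the brightness of a spot differs with its probe, and values are compared between arrays for the same probe only. In RNA of a whole culture, more cells of a type and more RNA per cell cannot be told apart.

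Ctsw, the cysteine cathepsin of cytotoxic lymphocytes, was the member with the largest difference. Its log2 signal was 7.22, 7.40 and 7.17 on the control arrays and 10.87, 11.04 and 10.57 on the TGF-β1 arrays. The groups did not overlap, and the lowest TGF-β1 array was 9.0-fold above the highest control array. The means were 7.26 ± 0.12 (SD, n = 3) and 10.83 ± 0.24 (SD, n = 3), a log2 difference of 3.57 with a standard error of 0.15, which is an 11.9-fold higher signal. Of 14345 genes tested, 16 had a larger log2 difference than Ctsw, or 0.112%. This count describes the values that chose Ctsw. It also rests partly on unmeasured control values, since the genes Prss46 and Col25a1 among them were well above background on 0 control arrays. Ctsw was well above background on all 6 arrays, so the control value is a measured level and not a bound. The brightness of a spot over its local background was 5.52 to 6.52 for this probe on the control arrays and 47.7 to 61.9 on the TGF-β1 arrays.

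A second probe for Ctsw gave nearly the same difference. Its log2 signal was 6.45, 6.82 and 6.53 on the control arrays and 10.25, 10.15 and 9.81 on the TGF-β1 arrays, a log2 difference of 3.47. Both probes put TGF-β1 replicate 3 lowest within its group, and it was 0.39 below the mean of the other TGF-β1 arrays on the first probe. The log2 difference of the first probe was 3.69 without that array. With normexp background correction the log2 difference was 3.02, and with scaling of each array to its 75th percentile it was 3.57.

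**Figure D1:**
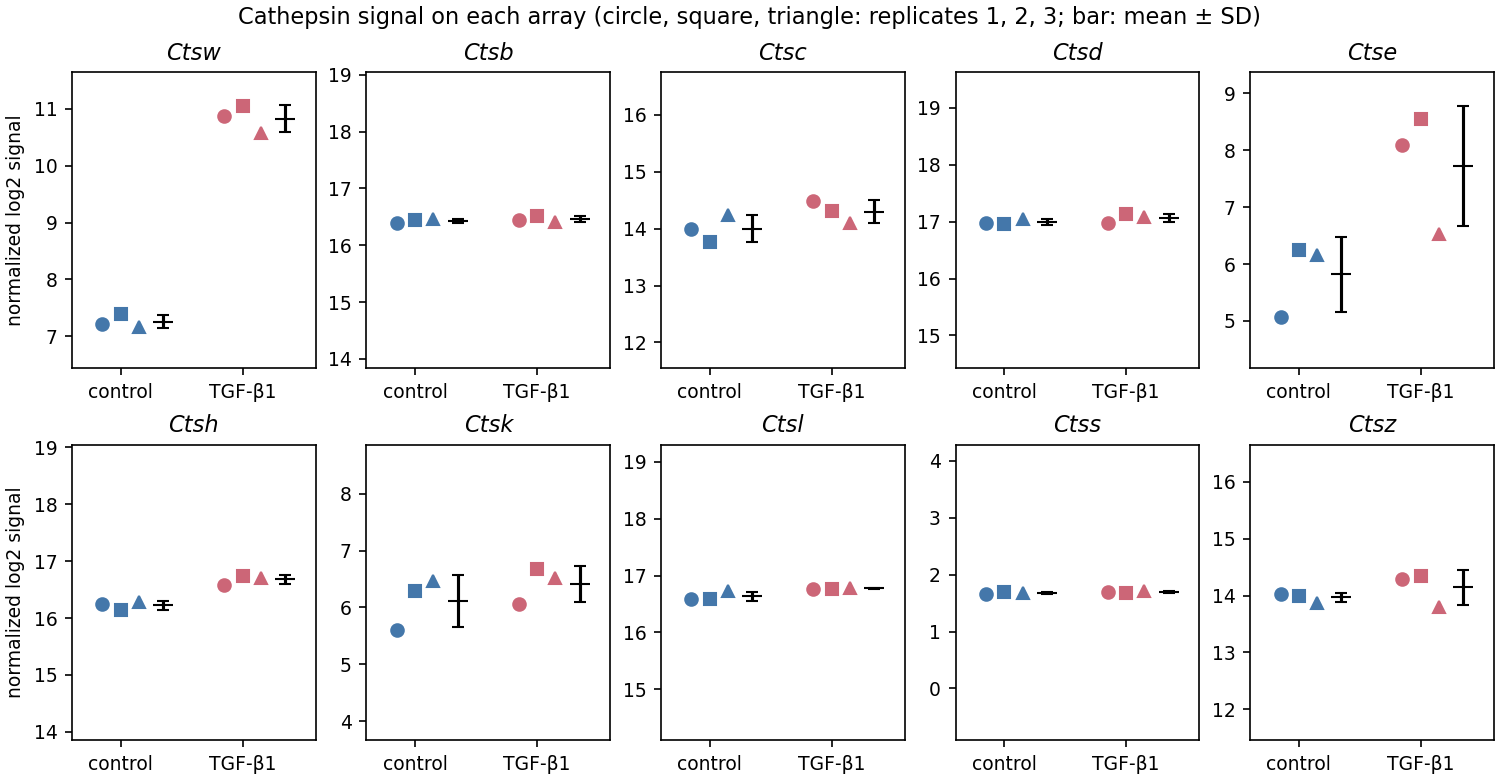
Normalised log2 signal (vertical axis) of each cathepsin on the 3 control and 3 TGF-β1 arrays. Circles, squares and triangles are replicates 1, 2 and 3, bars are the mean ± SD, and every panel spans the same number of log2 units around its own mean. Ctsw reached 7.17 to 7.40 without and 10.57 to 11.04 with TGF-β1, the triangle of Ctse stood near the control arrays at 6.53, and Ctss was not well above background on any of the 6 arrays.

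Of the 10 members, 9 passed the filter on dim probes, and each of these 9 was well above background on all 6 arrays. Only Ctsw met the thresholds for a differentially expressed gene (DEG), a limma adjusted p under 0.05 and a change of at least 2-fold. Over all genes tested, 1.19% met them upwards and 0.188% downwards. Without TGF-β1 replicate 3, and without replicate 3 of both groups, Ctse met them as well. In those settings 550 and 623 genes over all met them upwards, against 171 with all 6 arrays. In 4 members, Ctsw, Ctse, Ctsh and Ctsl, every TGF-β1 array lay above every control array, and in 0 members below. The shares over all genes were 12.9% above and 13.5% below. As the genes were picked with these values known, nothing is read from any of these counts of members.

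The other cysteine cathepsins that were bright on these arrays differed much less between the groups. Ctsh, an aminopeptidase, had log2 signals of 16.25, 16.14 and 16.29 on the control arrays and 16.59, 16.74 and 16.71 on the TGF-β1 arrays. The groups did not overlap, and the log2 difference was 0.46 with a standard error of 0.10, a 1.37-fold higher signal. The other Ctsh probes gave log2 differences of 0.49 and 0.36. With scaling to the 75th percentile the difference was 0.25, and the groups still did not overlap.

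Ctsb and Ctsl are the broadly expressed cysteine endopeptidases of the lysosome. Ctsb was at 16.39, 16.44 and 16.46 on the control arrays and at 16.45, 16.52 and 16.41 on the TGF-β1 arrays in log2 signal. The groups overlapped, and the log2 difference of 0.03 turned to -0.16 with scaling to the 75th percentile, where every TGF-β1 array was below every control array. Ctsl was at 16.60, 16.59 and 16.73 on the control arrays and at 16.76, 16.77 and 16.79 on the TGF-β1 arrays. Its log2 difference of 0.14 kept the groups apart, but it turned to -0.04 with scaling to the 75th percentile, and the groups then overlapped. The Ctsl probe is printed 10 times on each array, and the SD of log2 signal between its spots was 0.05 to 0.10.

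Ctsc, or dipeptidyl peptidase I, is known for activating the serine proteases of immune cell granules. Its log2 signal was 14.00, 13.76 and 14.24 on the control arrays and 14.49, 14.32 and 14.10 on the TGF-β1 arrays. The groups overlapped, with control replicate 3 above TGF-β1 replicate 3. The log2 difference was 0.30, and it was 0.09 with scaling to the 75th percentile and 0.52 without replicate 3 of both groups.

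Ctsz is a carboxypeptidase. Its log2 signal was 14.03, 14.00 and 13.87 on the control arrays and 14.30, 14.35 and 13.79 on the TGF-β1 arrays. TGF-β1 replicate 3 was the lowest of the 6 arrays, while the other TGF-β1 arrays were above all control arrays. The log2 difference was 0.18, was 0.36 without TGF-β1 replicate 3, and turned to -0.05 with scaling to the 75th percentile.

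Ctsk and Ctss, like Ctsw, are known mainly from cells other than airway epithelium, Ctsk as the collagen-degrading protease of osteoclasts and Ctss as a protease of antigen-presenting cells. Ctsk was dim, with log2 signals of 5.60, 6.28 and 6.46 on the control arrays and 6.05, 6.67 and 6.52 on the TGF-β1 arrays, with a brightness over local background of 2.64 to 4.69. The groups overlapped, and the log2 difference of 0.30 ranged from 0.04 to 0.48 when each array was left out in turn. Ctss was not well above background on any of the 6 arrays, with log2 signals of 1.66 to 1.71, so no difference is given for it.

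The aspartic cathepsins behaved differently from each other. Ctsd, the main aspartic protease of lysosomes, was at 16.97, 16.95 and 17.05 on the control arrays and at 16.98, 17.13 and 17.09 on the TGF-β1 arrays in log2 signal. The groups overlapped, and the log2 difference of 0.08 turned to -0.10 with scaling to the 75th percentile. Ctse, an aspartic protease of endosomes, had the second largest difference of the members. Its log2 signal was 5.06, 6.25 and 6.15 on the control arrays and 8.10, 8.54 and 6.53 on the TGF-β1 arrays. The groups did not overlap, but TGF-β1 replicate 3 was 1.79 below the mean of the other TGF-β1 arrays and only 1.21-fold above the highest control array.

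The means of Ctse were 5.82 ± 0.66 (SD, n = 3) and 7.72 ± 1.06 (SD, n = 3), a log2 difference of 1.90 with a standard error of 0.56, or 3.73-fold. Without TGF-β1 replicate 3 the log2 difference was 2.49, and without replicate 3 of both groups it was 2.66. With normexp background correction it was 1.27. The brightness of the Ctse spots over local background was 1.81 to 2.90 on the control arrays and 3.94 to 11.9 on the TGF-β1 arrays, so that the size of the difference rests on dim control spots.

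**Figure D2:**
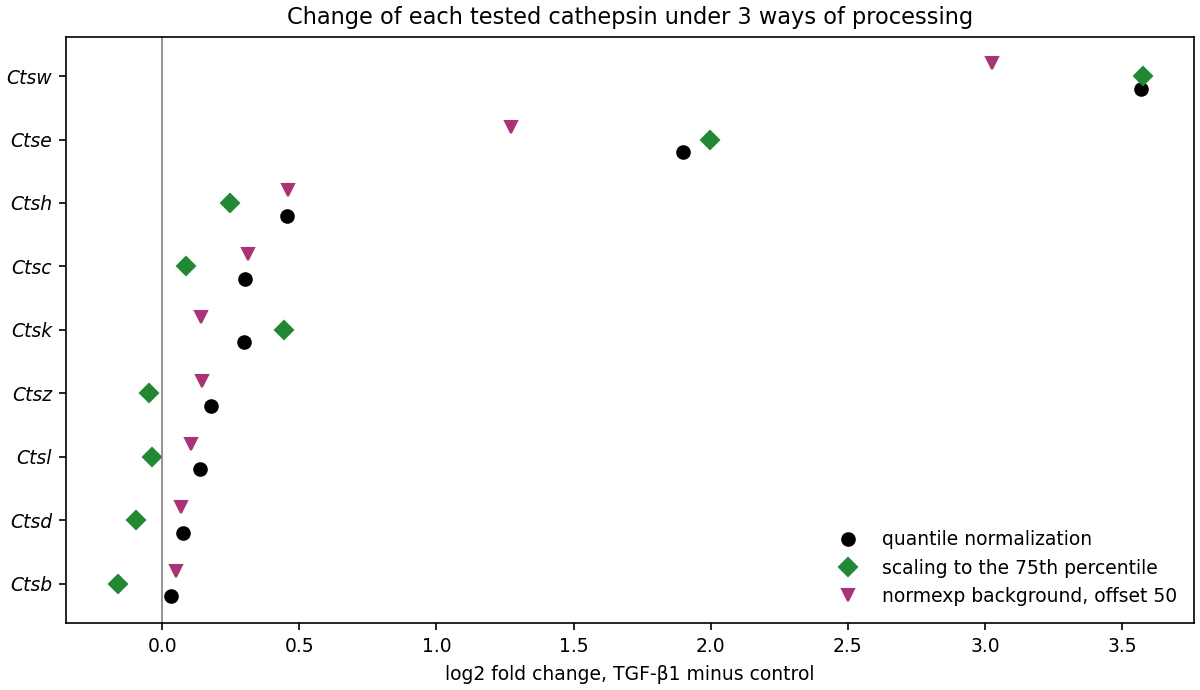
Log2 fold change, TGF-β1 minus control (horizontal axis), of the 9 cathepsins that passed the filter (vertical axis), under quantile normalisation (circles), scaling to the 75th percentile (diamonds) and normexp background with an offset of 50 (triangles). Ctsw was between 3.02 and 3.57 and Ctse between 1.27 and 2.00, while Ctsb, Ctsd, Ctsl and Ctsz were above 0 with quantile normalisation and below 0 with scaling to the 75th percentile.

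All 9 members that passed the filter had a log2 difference above 0 with quantile normalisation, but Ctsb, Ctsd, Ctsl and Ctsz were below 0 with scaling to the 75th percentile. The choice of scaling shifted bright genes as a group. Over the 3587 brightest genes tested, the median log2 difference was 0.01 with quantile normalisation and -0.18 with scaling to the 75th percentile, and the share of them above 0 was 52.1% and 26.2%. Over all genes tested the medians were -0.03 and -0.09, with 45.8% and 38.3% of genes above 0. Ctsb, Ctsd, Ctsh and Ctsl had log2 signals above 16 on every array, and 7 of the 9 members differed by less than 0.5.

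TFEB and its relatives, transcription factors of lysosomal genes, recognise a promoter element called the CLEAR element, whose core is TCACGTGA. The core was searched in the 250 bases before and 50 bases after each transcription start in RefSeq promoter windows of GRCm38.p6, and being a palindrome it reads the same on both strands. It was present in 320 of 32851 windows, or 0.974%. Windows were at hand for 6 of the 10 members, Ctsc, Ctsd, Ctsk, Ctsl, Ctss and Ctsz, and of these Ctsd held the core. Windows for Ctsw, Ctsb, Ctse and Ctsh were not used here. Of the lysosomal genes listed further on, the core was in 1 of 13 other cathepsins (Ctsa), 1 of 29 hydrolases (Gla), 4 of 27 genes for sorting, membrane and regulation (Cln3, Gnptg, Igf2r and Mcoln1), 3 of 17 genes of the vacuolar ATPase (Atp6v0d1, Atp6v0e and Atp6v1a) and 0 of 17 inhibitors. Of the marker lists used below, only that of fibroblasts held it, in 1 of 6 windows (Fbln1). The stretches around the core are shown for the cathepsins that hold it, and for Igf2r and Atp6v0d1, which had the highest and the lowest log2 difference of the lysosomal genes that hold it. Ctsa and Igf2r each hold 2 copies, and both are shown. Capitals mark the core, and each stretch is written 5′ to 3′ on the strand of its gene.
Ctsd: cgcccgcgtcTCACGTGAcccgttgagg
Ctsa, copy 1: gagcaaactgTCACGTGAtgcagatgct
Ctsa, copy 2: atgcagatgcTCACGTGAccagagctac
Igf2r, copy 1: aacgaggacgTCACGTGAgcaggaggcg
Igf2r, copy 2: ccgactcaggTCACGTGAcgctccgggg
Atp6v0d1: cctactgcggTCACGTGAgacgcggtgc

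The Ctsd stretch lies at chr7:142387909-142387936 on the minus strand, with the core beginning 99 bases before the transcription start. The Ctsa stretches lie on the plus strand, at chr2:164833750-164833777, 13 bases before the start, and at chr2:164833767-164833794, with the core just after the start. The Igf2r stretches lie on the minus strand, at chr17:12769738-12769765, 49 bases before the start, and at chr17:12769697-12769724, 8 bases before it. The Atp6v0d1 stretch lies at chr8:105566051-105566078 on the minus strand, 4 bases before the start. With the core in their windows, Ctsd differed by 0.08, Ctsa by 0.14, Igf2r by 0.50 and Atp6v0d1 by -0.47 on the log2 scale.

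Elements linked with TGF-β signalling were searched on both strands of the same windows. The Smad box CAGACA was in 21% of all windows and, among the members, in that of Ctsk. The Smad palindrome GTCTAGAC was in 0.213% of all windows and in 0 of the 6 member windows. The AP-1 site TGANTCA was in 7.81% of all windows and likewise in 0 of the 6. These are matches of letters in short windows and say nothing about binding.

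Most other cathepsin genes were not detected in these cultures. Of 13 further cathepsin genes on the array, 10 were not well above background on any of the 6 arrays, among them Ctsg, a serine protease of neutrophils, and Ctsj, Ctsm, Ctsq and Ctsr, which belong to a rodent cluster known from placenta. The remaining 3 were Ctso with a log2 difference of 0.46 (limma adjusted p = 0.150), Ctsf with 0.35 (limma adjusted p = 0.242) and Ctsa, a serine carboxypeptidase, with 0.14 (limma adjusted p = 0.486). Ctso was at 5.67, 5.76 and 5.29 on the control arrays and at 6.05, 6.05 and 6.02 on the TGF-β1 arrays in log2 signal, without overlap, and none of the 3 passed the test.

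Inhibitors of cathepsins were tested in 6 of 22 genes, and 15 of the 22 were not well above background on any of the 6 arrays. Of the 6, 2 had a log2 difference above 0 and 4 below, with a median of -0.26 against -0.03 over all genes, or -0.52 against -0.09 with scaling to the 75th percentile. By limma 0 were DEGs, and 3 had an unadjusted p under 0.05, all downwards. Over all genes tested an unadjusted p under 0.05 was common, at 11.4% upwards and 10.8% downwards, so such counts are read against these shares here and below. The kininogens, plasma proteins with cystatin domains, had the largest differences, with -0.93 for Kng2 (limma adjusted p = 0.206) and -0.72 for Kng1 (limma adjusted p = 0.169). Cstb, the intracellular stefin B, was at 15.27, 15.40 and 15.15 on the control arrays and at 14.85, 14.83 and 15.05 on the TGF-β1 arrays in log2 signal. Its groups did not overlap, but its log2 difference of -0.36 did not pass the test (limma adjusted p = 0.162).

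The enzymes that share the lysosome with the cathepsins were all detected, 37 of 37 hydrolases and activators. With quantile normalisation 30 had a log2 difference above 0 and 7 below, with a median of 0.17, and with scaling to the 75th percentile 22 were above 0, with a median of 0.03. Without TGF-β1 replicate 3 the count was 30 again and the median 0.28. The largest difference was that of Lgmn, the asparaginyl endopeptidase that cleaves precursors of cysteine cathepsins. Lgmn was at 14.49, 14.36 and 14.89 on the control arrays and at 15.25, 15.33 and 15.12 on the TGF-β1 arrays in log2 signal, without overlap, with a log2 difference of 0.65 (limma adjusted p = 0.0986). Hyal1, a hyaluronidase, differed by 0.56 (limma adjusted p = 0.177), and Naglu, an enzyme of heparan sulphate breakdown, by 0.50 (limma adjusted p = 0.239). None of the 37 was a DEG.

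Of 31 genes for sorting, lysosomal membrane and regulation, 30 were tested, with 17 above 0 and 13 below and a median of 0.03 with quantile normalisation (0.06 without TGF-β1 replicate 3), against 9 above 0 and a median of -0.12 with scaling to the 75th percentile. Igf2r, the mannose-6-phosphate receptor that carries cathepsin precursors, differed by 0.50 (limma adjusted p = 0.217), and Slc17a5, which exports sialic acid from lysosomes, by 0.45 (limma adjusted p = 0.119). Rragd, a Rag GTPase that takes part in placing mTORC1 on lysosomes, was at 12.25, 12.28 and 11.51 on the control arrays and at 10.76, 10.98 and 11.25 on the TGF-β1 arrays in log2 signal. Its log2 difference of -1.02 did not pass the test (limma adjusted p = 0.0914). Rragd did pass in 5 of 16 other settings, without TGF-β1 replicate 3 among them. The vacuolar ATPase, the proton pump that acidifies lysosomes, had 19 of 23 genes tested, with 5 above 0, 14 below and a median of -0.12, or -0.37 with scaling to the 75th percentile. Its largest differences were -0.51 for Atp6v1c2 (limma adjusted p = 0.376), -0.49 for Atp6v1b2 (limma adjusted p = 0.10) and -0.47 for Atp6v0d1 (limma adjusted p = 0.144). Atp6v1c2 was at 5.70, 5.87 and 5.47 on the control arrays and at 4.53, 5.08 and 5.89 on the TGF-β1 arrays in log2 signal. Its TGF-β1 replicate 3 was thus above every control array.

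Together these 5 lists held 126 genes, of which 95 were tested. With quantile normalisation 57 had a log2 difference above 0 and 38 below, with a median of 0.05. With scaling to the 75th percentile fewer were above 0 in every list. They were 2 of 3 other cathepsins, 1 of 6 inhibitors, 22 of 37 hydrolases, 9 of 30 sorting genes and 2 of 19 vacuolar ATPase genes. By limma with quantile normalisation 0 of the 95 were DEGs. An unadjusted p under 0.05 was found in 12 upwards and 10 downwards, shares of 12.6% and 10.5%, near those over all genes. The pooled shares hide opposite directions between lists. Upwards and downwards there were 6 and 0 of 37 hydrolases, 5 and 3 of 30 sorting genes and 1 and 0 of 3 other cathepsins. There were 0 and 4 of 19 vacuolar ATPase genes and 0 and 3 of 6 inhibitors. The methods' t-test, an unpaired test without adjustment, called 0 of them upwards and 1, Rragd, downwards, and after Benjamini-Hochberg adjustment 0.

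**Figure D3:**
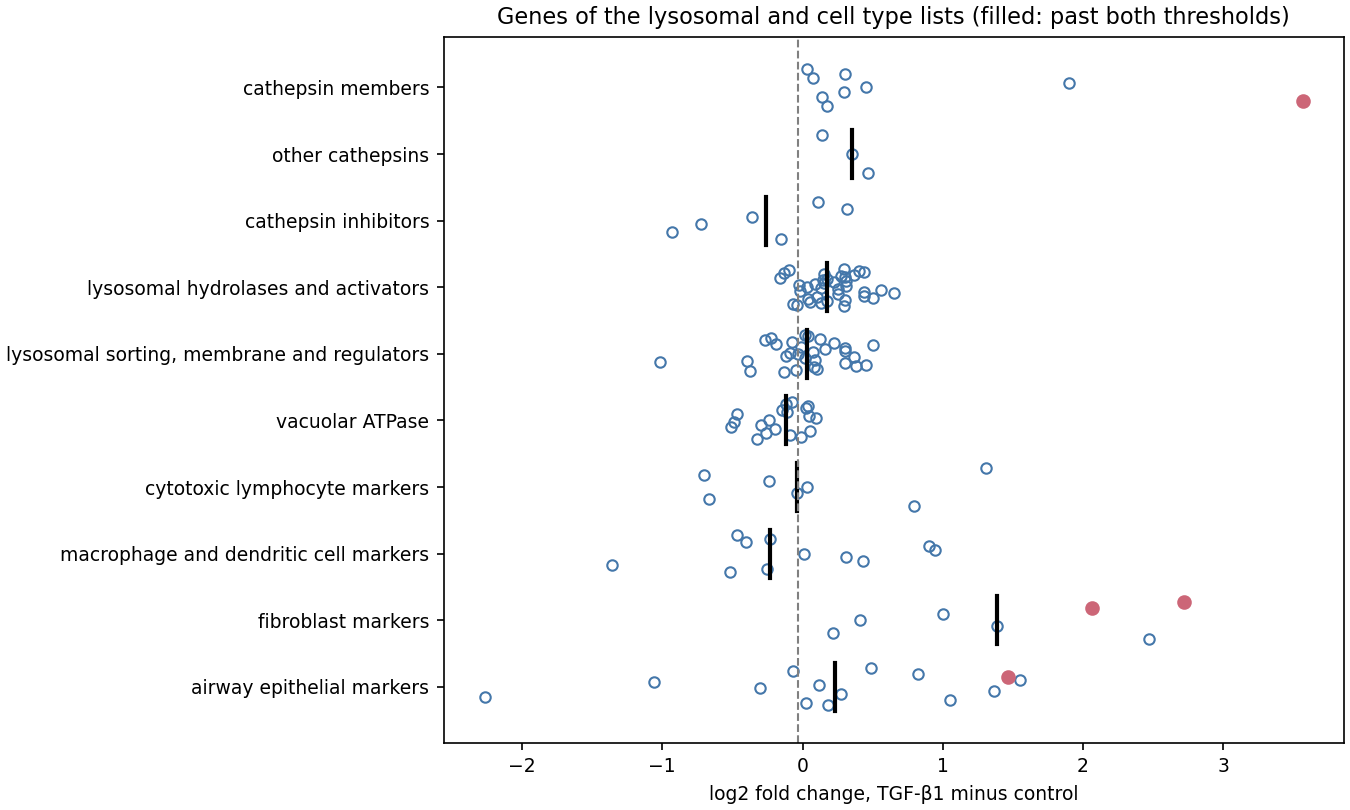
Log2 fold change, TGF-β1 minus control (horizontal axis), of each tested gene, by list (vertical axis). Open circles are genes that did not meet the thresholds for a DEG, filled circles are DEGs, black bars are list medians (none for the 10 cathepsins) and the dashed line is the median of all genes tested, -0.03. Ctsw stood at 3.57, away from every gene of the lysosomal lists, whose range was -1.02 to 0.65.

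Because Ctsw is known from cytotoxic lymphocytes, the markers of those cells were read on the same arrays. Of 24 markers, 17 were not well above background on any of the 6 arrays. They included Ptprc, the common leukocyte antigen CD45, the T cell genes Cd2, Cd3g and Cd8a, the natural killer cell genes Ncr1 and Klrb1c, and the granule proteases Gzma, Gzmb and Gzmk. The log2 of the summed signal of the 7 tested markers was 9.54 to 9.60 on the control arrays and 9.72 to 10.20 on the TGF-β1 arrays. Bright markers weigh most in such a sum, here and below. By limma 0 of the 7 tested were DEGs, with a median log2 difference of -0.04 that turned to 0.11 with scaling to the 75th percentile and was -0.25 without TGF-β1 replicate 3, and 2 had an unadjusted p under 0.05 upwards and 1 downwards.

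The brightest of these markers were Ccl5, a chemokine that other cells make as well, Cd3e and Lck. Ccl5 was at 7.30, 7.70 and 7.72 on the control arrays and at 9.56, 9.11 and 7.99 on the TGF-β1 arrays in log2 signal, a log2 difference of 1.31 (limma adjusted p = 0.134), and it was a DEG without TGF-β1 replicate 3, with 1.75. Cd3e, a subunit of the T cell receptor complex, differed by -0.24 (limma adjusted p = 0.395), and Lck, a kinase of T cells, by -0.04 (limma adjusted p = 0.927). The remaining tested markers were dimmer. The T cell genes Cd3d, Cd8b1 and Zap70 were well above background on all 6 arrays, with log2 differences of -0.70 (limma adjusted p = 0.0882), 0.03 (limma adjusted p = 0.903) and 0.80 (limma adjusted p = 0.172), and Prf1, the pore-forming perforin, was so on 5, with -0.67 (limma adjusted p = 0.273). Every TGF-β1 array lay above every control array for Zap70 and below for Cd3d. The part of lymphocyte RNA in the difference of Ctsw was not tested.

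The 11 tested markers of macrophages and dendritic cells, which are rich in cathepsins, gave a summed log2 signal of 14.10 to 14.36 on the control arrays. On the TGF-β1 arrays it was 14.27 to 14.29. Of 21 markers, 10 were not well above background on any of the 6 arrays, among them Ptprc, Adgre1, Itgax, Lyz2 and Mrc1. By limma 0 of the 11 tested were DEGs, with a median of -0.23, or 0.01 without TGF-β1 replicate 3, where Cd74, the invariant chain of MHC class II, became a DEG with 1.5, and with 2 genes at an unadjusted p under 0.05 upwards and 2 downwards. The brightest were Cd14, a co-receptor for lipopolysaccharide, with -0.40 (limma adjusted p = 0.176), Csf1r with 0.01 (limma adjusted p = 0.984) and Itgam with 0.43 (limma adjusted p = 0.134).

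Of the fibroblast markers, 2 collagen genes were DEGs, with control values that are not measured levels. The summed log2 signal of the 7 tested markers was 9.65 to 10.05 on the control arrays and 9.99 to 12.11 on the TGF-β1 arrays. Of 12 markers, 5 were not well above background on any of the 6 arrays, namely Col3a1, Lum, Pdgfrb, Dpt and Postn, and the 7 tested were all above 0, with a median of 1.38. The median was 0.60 with normexp background correction and 2.01 without TGF-β1 replicate 3. The collagen I genes Col1a1 and Col1a2 were higher by at least 2.59-fold and at least 2.38-fold, bounds because neither was well above background on a control array. They passed the filter on dim probes through the TGF-β1 arrays alone. Their limma adjusted p of 0.00910 and 0.0162 rest on the unmeasured control values and do not belong to the bounds. Neither was a DEG with normexp background correction, with no filter on dim probes, without TGF-β1 replicate 2 or by the methods' t-test after adjustment, Col1a2 was also not a DEG without control replicate 1 or 2, and neither entered the test when detection on all 6 arrays was asked for. Without TGF-β1 replicate 3 there were 4 DEGs in this list, Fbln1 with 2.10 and Thy1 with 3.57 on the log2 scale being added. The brightest were Dcn with 1.00 (limma adjusted p = 0.273), Fbln1 with 1.38 (limma adjusted p = 0.258) and Pdgfra with 0.21 (limma adjusted p = 0.484). On TGF-β1 replicate 3, where Ctsw was at 10.57, these markers split: Dcn at 8.98, Fbln1 at 8.10 and Thy1 at 4.6 in log2 signal were at or within the level of the control arrays, and Col1a1 at 4.74 and Col1a2 at 5.38 were above all of them. The part of the fibroblast markers in the difference of Ctsw was not tested.

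The cells carried most of the markers of airway epithelium, the tissue that their label names. Of 16 such markers, 14 were tested, and the mucin genes Muc5ac and Muc5b were not well above background on any of the 6 arrays. The summed log2 signal of the 14 tested markers was 18.90 to 18.99 on the control arrays and 18.85 to 19.29 on the TGF-β1 arrays. The brightest were Cyp2f2, a club cell cytochrome, with -0.07 (limma adjusted p = 0.696), and the keratins Krt18 with 0.12 (limma adjusted p = 0.552) and Krt8 with 0.28 (limma adjusted p = 0.392). Of the 14, 10 were above 0 and 4 below, with a median of 0.23. With scaling to the 75th percentile 8 were above 0 and 6 below, with a median of 0.06. With quantile normalisation 1 was a DEG, Foxj1, the regulator of ciliated cells, which rose by 1.47 on the log2 scale (limma adjusted p = 0.00238). Other markers of this list, named after their values were seen, differed more without passing the test. Scgb1a1, the secretoglobin of club cells, was at 10.83, 10.18 and 7.77 on the control arrays and at 7.00, 7.57 and 7.42 on the TGF-β1 arrays in log2 signal, a difference of -2.27 (limma adjusted p = 0.158). Scgb1a1 was a DEG without control replicate 3, with -3.17, and without replicate 3 of both groups, with -3.21. The basal cell keratins Krt14, Krt5 and Krt15 differed by 1.55, 1.37 and -1.06, and Scgb3a2, another secretoglobin, by 1.05, with limma adjusted p from 0.0859 to 0.353. Krt15 was at 14.14, 14.43 and 13.98 on the control arrays and at 14.07, 13.81 and 11.49 on the TGF-β1 arrays in log2 signal. Its difference therefore rests largely on TGF-β1 replicate 3. Without TGF-β1 replicate 3 there were 5 DEGs in this list, Foxj1, Krt14 with 1.92, Krt5 with 1.90, Scgb3a2 with 1.26 and Epcam with 1.03.

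The genes around Ctsw in the chromosome's order had no difference of that size. In RefSeq the 5 protein-coding genes on either side are Drap1, AI837181, Fosl1, Ccdc85b and Fibp, and Efemp2, Mus81, Cfl1, Snx32 and 1700020D05Rik. All 10 were well above background on the 6 arrays, and by limma 0 were DEGs, with adjusted p from 0.186 to 0.913, while 2 had an unadjusted p under 0.05 downwards. Next to Ctsw, Fibp, an intracellular protein that binds fibroblast growth factor, differed by 0.02 and Efemp2, an extracellular matrix protein also called fibulin-4, by 0.38, in log2. Efemp2 was at 11.25, 11.49 and 11.53 on the control arrays and at 12.07, 12.18 and 11.16 on the TGF-β1 arrays in log2 signal (limma adjusted p = 0.423), so that TGF-β1 replicate 3 was below every control array. Fosl1, an AP-1 subunit, was at 6.89, 7.08 and 6.34 on the control arrays and at 6.24, 6.33 and 6.12 on the TGF-β1 arrays, with a log2 difference of -0.54 (limma adjusted p = 0.186). Ccdc85b differed by -0.47 (limma adjusted p = 0.214), and the remaining 6 were between -0.22 and 0.11.

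**Figure D4:**
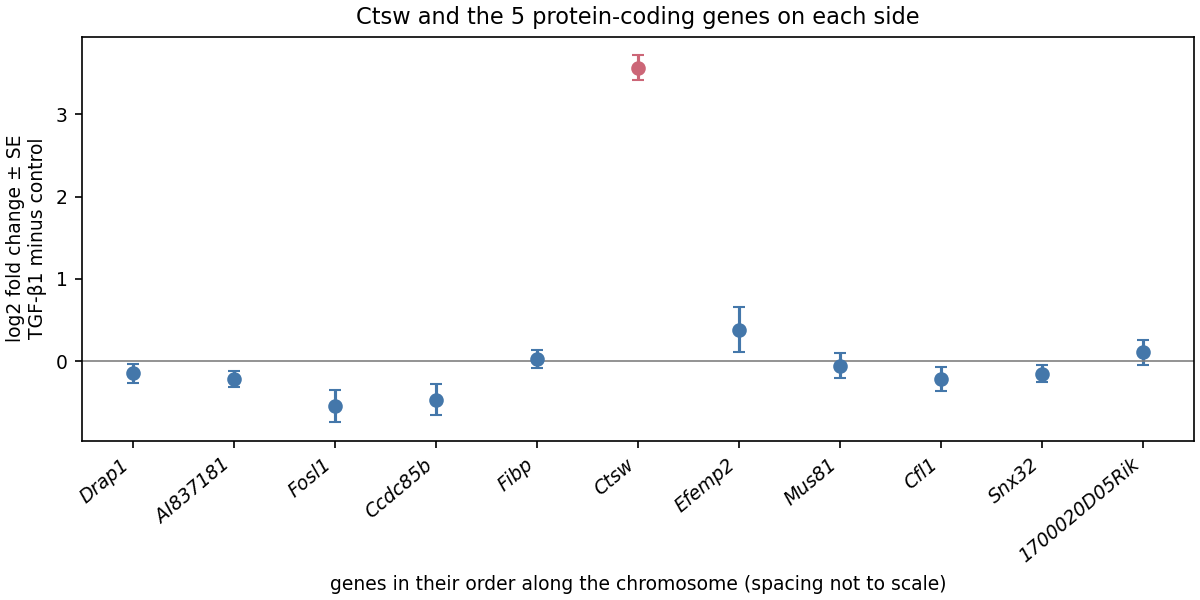
Log2 fold change with its standard error, TGF-β1 minus control (vertical axis), of Ctsw and the 5 protein-coding genes on each side in their order along the chromosome (horizontal axis, spacing not to scale). Ctsw was at 3.57, and the neighbours were between -0.54 and 0.38.

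The genes whose signal over the 6 arrays was most like that of Ctsw were sought by the Euclidean distance between log2 profiles, each centred on its own mean. They were P2rx2, a subunit of ATP-gated channels, at a distance of 0.63, and Col25a1, a membrane collagen, Nppc, the precursor of C-type natriuretic peptide, Prss46, a gene of the serine protease family, and Rgs4, a regulator of G protein signalling. P2rx2 was the only gene of these 5 that was well above background on the control arrays, with log2 signals of 6.82, 7.13 and 6.92, against 10.48, 10.81 and 9.60 on the TGF-β1 arrays. The other 4 were well above background on the 3 TGF-β1 arrays and on 0 control arrays, and were higher by at least 3.01-fold for Col25a1, 4.32-fold for Nppc, 8.26-fold for Prss46 and 2.91-fold for Rgs4. Their control values are not measured levels, so that they are given no distance or order. Of the members, Ctse came nearest to Ctsw, at a distance of 2.51, and the other 7 tested members lay at 3.84 to 4.34. This distance grows with a gap in the size of the difference, so it does not compare shapes alone. By Pearson correlation over the 6 arrays Ctsh was the member most like Ctsw, at 0.95, against 0.84 for Ctse. The likeness rests on 6 arrays in 2 groups, and it was found with the values that chose Ctsw.

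**Figure D5:**
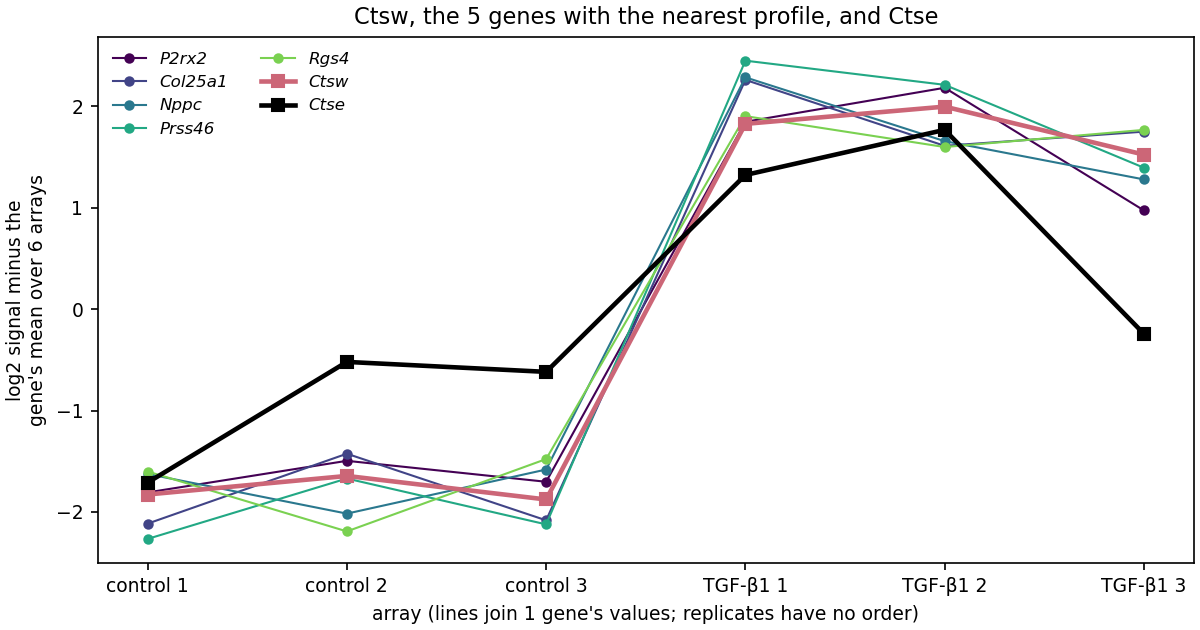
Log2 signal minus the gene's mean over the 6 arrays (vertical axis) on each array (horizontal axis) for Ctsw, the 5 genes with the nearest profile, and Ctse. Lines join the values of 1 gene and imply no order of replicates. P2rx2 follows Ctsw at a distance of 0.63, the control values of the other 4 nearest genes are not above background, and Ctse departs from it on TGF-β1 replicate 3, where its log2 signal was 6.53 against 8.10 and 8.54 on the other TGF-β1 arrays.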

How the data were processed

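RNA of 3 control and 3 TGF-β1-treated 2D-MAO cultures was measured on single-colour Agilent mouse arrays. The deposited files hold each spot's intensity on a linear scale, after background subtraction by Agilent Feature Extraction 11.0.1.1 per the submitters' processing notes, without normalisation between arrays. Control spots and spots marked as uneven or outlying were left out, which kept 56599 of 56605 probes. Accessions were named through RefSeq (GRCm38.p6): 32991 of 35883 matched. As the array was designed on an older assembly, probes are given no positions.

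Log2 intensities were quantile normalised. A probe was kept if 3 or more of the 6 arrays had it well above background, and the kept probe with the highest mean stood for a gene, giving 14345 tested genes. limma 3.58.1 in R 4.3.3 was run without further terms. DEGs had a change of at least 2-fold and a Benjamini-Hochberg adjusted p under 0.05 over all genes. A gene that no array of a group measured well above background is given a bound, against the higher of its own value and the lowest signal well above background on each array. Precision is limited by having 3 arrays a group. The labels call the replicates biological.

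The members and the lists (other cathepsins, inhibitors, hydrolases, sorting and regulators, vacuolar ATPase, and markers of cytotoxic lymphocytes, macrophages and dendritic cells, fibroblasts and airway epithelium) were written from general knowledge, with earlier results of these data known. Named were all members, the 3 largest changes of each lysosomal list, every DEG and the 3 brightest genes of each marker list, the neighbours of Ctsw and its 5 nearest profiles. Other genes are named as not detected, as holding a promoter element, or after their values were seen, for a setting that changes a call or a large difference. Normexp, planned on mean brightness, used the median brightness of spot and background, with an offset of 50. The fit was tested on simulated data.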

Additional observations from a re-analysis of the deposited data

How the results depend on the processing

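The log2 difference of Ctsw, a description of the values that chose it, was 3.57 and was 3.02 with normexp background, 3.49 to 3.69 when each array was left out, and within the spread of replicates of 3.57 in 12 of 13 settings that give a difference. With scaling to the 75th percentile Ctsb (-0.16), Ctsd (-0.10), Ctsl (-0.04) and Ctsz (-0.05) turned negative. DEGs over all genes numbered 171 upwards and 27 downwards. Upwards there were 49 with no filter on dim probes, 86 with the replicate number as a block (replicate block), 623 without replicate 3 of both groups, 312 by the methods' t-test unadjusted and 4 adjusted, and 48 to 550 when each array was left out. Downwards there were 16 with normexp, 11 with no filter, 233 without replicate 3 of both groups, 76 by the methods' t-test unadjusted and 1 adjusted, and 7 to 156 when each array was left out. Leaving out control replicate 1 or 2 gave 63 and 75 upwards and 8 and 9 downwards, leaving out TGF-β1 replicate 1, 2 or 3 gave 60, 48 and 550 upwards and 8, 7 and 156 downwards, and leaving out control replicate 3 gave 59 downwards. Of the lysosomal lists, 0 genes were DEGs upwards under all 16 alternatives. Downwards there was 1, Rragd, with a trended, robustly fitted variance prior, without replicate 3 of both groups and by the methods' t-test unadjusted, and 0 to 1 when each array was left out. The cause of these changes was not tested. Deviations of same-numbered arrays correlated at -0.05 to 0.33, and 1 of 3 control arrays correlated best with its own number. With only 3 pairs, this cannot show whether the replicate numbers pair the arrays. Signals of Ctse and Ctsk lay close to background, which limits how well their differences are known.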
